A study of Rattus norvegicus with 56 samples.

Results

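Trimethylation of lysine 27 on histone H3 (H3K27me3) was profiled with ChIP-seq, the sequencing of immunoprecipitated chromatin, in the brains of rats that had an intracerebral haemorrhage, in which blood escapes into brain tissue. The regions described here carried an H3K27me3 peak in ipsilateral tissue, the side of the haemorrhage, of 21-month rats given plasma, with each of the plasma sources tested, and no peak in the same tissue of 21-month rats not given plasma. Peaks of those 3 lists were joined wherever they overlapped by at least 1 bp, which gave 335546 regions. Of these, 1359 (0.405%) held a peak with plasma of 3-month rats and a peak with plasma of 22-month rats and none in untreated tissue. They are called plasma-shared regions below. Since the 3 lists chose them, their peak strengths in those lists are descriptions and were not tested.

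H3K27me3 is laid down by Polycomb repressive complex 2 and typically covers broad domains over developmental genes that the tissue keeps silent. H3K4me3 marks promoters, and a promoter that carries it together with H3K27me3 is called bivalent, a state best known from embryonic stem cells. H3K9ac is an acetyl mark of active promoters and enhancers and is usually low where H3K27me3 is high.

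The groups used were 21-month ipsilateral tissue with plasma of 3-month rats, with plasma of 22-month rats and without plasma, and untreated 21-month contralateral, 13-month ipsilateral and 13-month contralateral tissue. All samples came from rats with intracerebral haemorrhage, and the labels do not name the strain, the dose of plasma or the time after the bleed. The sample labels give 21 months for the older rats and the series text 22 months. H3K4me3 was mapped in the 4 untreated groups, and H3K9ac and H3K27me3 in all 6, with 56 ChIP and input libraries in all. Tissue was bulk brain with no sorting of cells, and its identity could not be checked, since the peak lists hold no gene names.

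There are 16 peak lists, 1 for each group and mark. Each untreated list pools 2 ChIP libraries and each plasma list uses 1, so no value below has a spread between replicates, and the 95% Wilson intervals given for shares cover counting error over regions only. Neighbouring regions are not independent. Between 19323327 and 117740131 ChIP tags were kept per list. The H3K27me3 lists with 3-month and 22-month plasma kept 0.354 and 0.377 times the tags of the untreated 21-month ipsilateral list and held 37241 and 51178 peaks, against 300668 untreated. Both plasma lists lie in a processing folder apart from the untreated lists, so plasma and processing run cannot be told apart.

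The joined regions fell into classes by the lists that marked them, and the joining itself sets part of these numbers. Of the 12749 regions with a 3-month plasma peak and no untreated peak, 10.7% were plasma-shared, and of the 25279 with a 22-month plasma peak and no untreated peak, 5.38%. Where untreated tissue did have a peak, 7336 regions had both plasma peaks, which were 37.1% of the 19752 with a 3-month plasma peak and 34.2% of the 21459 with a 22-month plasma peak. Such regions count as shared even when both plasma peaks only touch the same untreated peak, so these shares are not a comparison. The remaining 35310 regions without an untreated peak carried the peak of 1 plasma list alone, 11390 with 3-month and 23920 with 22-month plasma.

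The plasma-shared regions were short. Their median length was 478 bp (quartiles 371 and 649, range 216 to 3923), and together they covered 777 kb. The regions with both plasma peaks and an untreated peak had a median length of 1671 bp. Regions of 1 plasma list alone had medians of 265 bp with 3-month and 266 bp with 22-month plasma. In 97.4% of the plasma-shared regions the 3-month list held a single peak, and in 98.4% the 22-month list did. The summits of the peaks of both lists lay a median of 101 bp apart, and within 100 bp in 49.8% of the plasma-shared regions, against 25.7% of those with an untreated peak as well. In 1109 of the 1359 (81.6%) the overlap covered at least 50% of the shorter peak, against 73.7% of those with an untreated peak as well. The latter were longer and held a single peak in 69.0% (3-month list) and 68.9% (22-month list). Their summit distances are therefore not a like comparison.

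Most of the peaks were of moderate strength. Strength is given as the authors' fold enrichment, the height of the peak over the local background. The median fold was 3.54 with 3-month plasma (quartiles 3.04 and 4.17, range 1.37 to 12.5) and 3.86 with 22-month plasma (quartiles 3.37 and 4.72, range 1.33 to 18.8). A fold of 4 or more was reached by 385 regions with 3-month and by 655 with 22-month plasma, and a fold of 8 or more by 7 and 62. Ranked within its own list, the median peak stood at the 60.1st percentile with 3-month and at the 73.7th with 22-month plasma. Regions with an untreated peak as well stood at the 64.7th and 44.5th percentile. The 22-month fold was the higher one in 865 plasma-shared regions (63.6%) and in 37.6% of those with an untreated peak as well. Across the 1359 regions the log2 folds of both lists had a Pearson correlation of 0.217 and a Spearman correlation of 0.132, given as a description over regions that share their libraries.

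**Figure D1:**
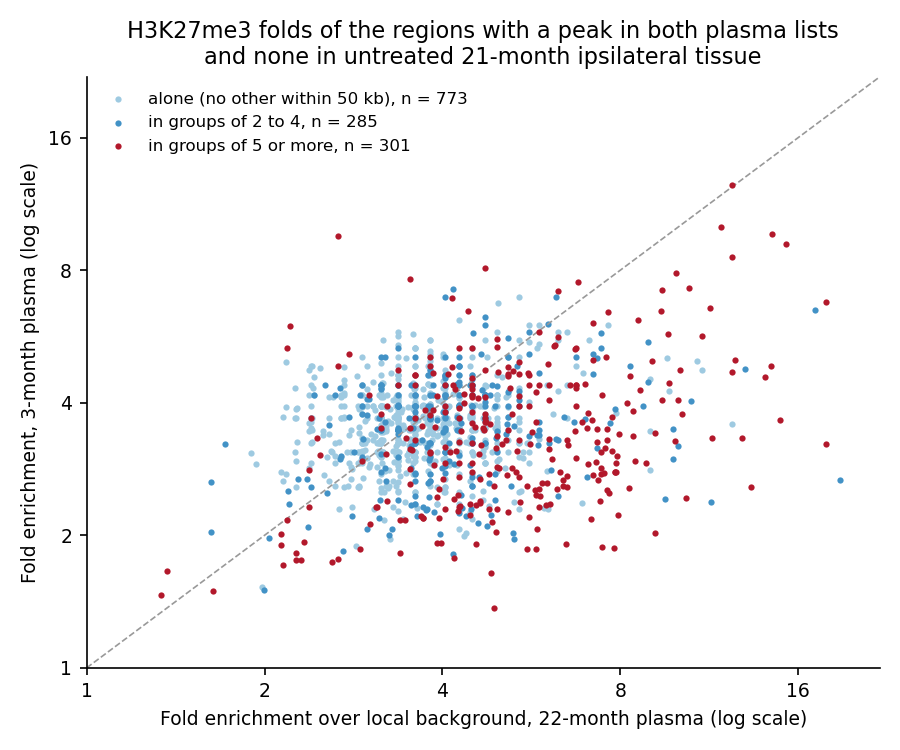
Fold enrichment of each of the 1359 plasma-shared regions with 3-month plasma (vertical, log scale) against 22-month plasma (horizontal, log scale), 1 point per region; the dashed line marks equal folds. Regions that lie alone gather around folds of 3.60 and 3.59, while those in groups of 5 or more spread below the line, with medians of 3.32 and 5.14.

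The threshold that chose the regions left values close on both sides of it. The weakest regions inside it had a −log10 q-value of 1.30 with 22-month plasma, at the limit of the list. They were chromosome 1, 171326262 to 171326652 (folds of 4.17 with 3-month and 2.43 with 22-month plasma), chromosome 14, 49159937 to 49160358 (3.70 and 2.25) and chromosome 16, 29905995 to 29906601 (2.91 and 1.94). Just outside lay regions with both plasma peaks whose untreated peak barely passed. At chromosome 8, 36814357 to 36815596, the plasma folds were 3.26 and 4.70 and the untreated fold 1.56, with a −log10 q-value of 1.30. At chromosome 2, 158688796 to 158690169, the plasma folds were 4.40 and 4.49 and the untreated fold 1.78.

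A peak of untreated 21-month ipsilateral tissue often lay close by. It was within 1 kb of 555 plasma-shared regions (40.8%) and within 5 kb of 929 (68.4%, interval 65.8 to 70.8), and the median distance was 1.58 kb. Regions of 1 plasma list alone had an untreated peak within 5 kb in 70.4% with 3-month and 70.4% with 22-month plasma. The far end differed: 157 plasma-shared regions (11.6%) lay over 50 kb from any untreated peak, against 3.50% with 3-month and 3.09% with 22-month plasma alone.

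Plasma-shared regions were unevenly spread over the genome. Chromosome 1 held 314 of them (23.1%), or 1.11 per Mb, while the median of chromosomes 2 to 20 was 0.395 per Mb. Chromosome 17 followed with 0.826 per Mb (75 regions) and chromosome 7 with 0.624 per Mb (91 regions). Chromosome X held 8 and chromosome Y none. Of the regions with an untreated peak as well, 14.1% lay on chromosome 1, and of those of 1 plasma list alone, 13.0%. Chromosome 1 makes up 10.2% of the summed chromosome spans. Only 13 plasma-shared regions lay on unplaced scaffolds.

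**Figure D2:**
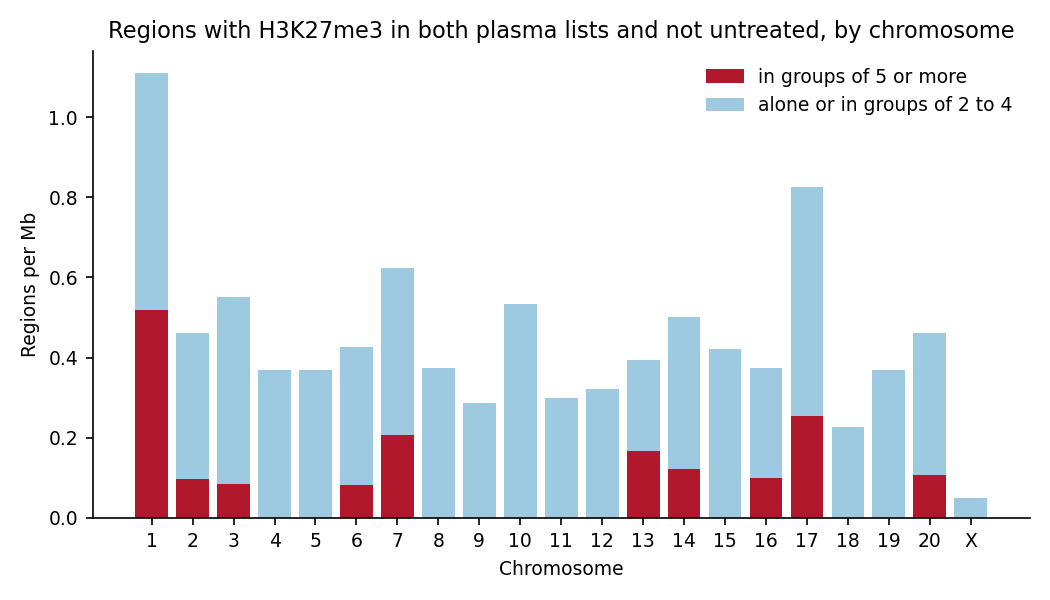
Plasma-shared regions per Mb of each chromosome, with the part that lies in groups of 5 or more (red) below the part that lies alone or in groups of 2 to 4 (blue). Chromosome 1 reaches 1.11 per Mb, of which 0.591 per Mb lie outside such groups.

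Some plasma-shared regions lay in dense groups. With gaps of at most 50 kb, 773 regions (56.9%) lay alone, 172 formed 86 pairs, 113 lay in 35 groups of 3 or 4, and 301 (22.1%) lay in 31 groups of 5 or more. Chromosome 1 held 147 of those 301. Another plasma-shared region lay within 10 kb of 392 (28.8%, interval 26.5 to 31.3), although the median distance to the next was 97.9 kb. By the same measure, 51.9% of the regions with both plasma peaks and an untreated peak lay within 10 kb of another of their kind, as did 22.1% of those of 3-month and 42.0% of those of 22-month plasma alone. Those sets hold more regions (7336, 11390 and 23920).

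The group with the most members spanned 434 kb at chromosome 1, 180645717 to 181079945, and held 38 plasma-shared regions. Their median fold was 2.78 with 3-month and 6.16 with 22-month plasma, over local backgrounds that differed between the lists and are given below. No peak of the untreated 21-month ipsilateral list lay anywhere in that span, while the 13-month contralateral list had 77 H3K27me3 peaks there, at 36 of the 38 regions. The untreated 21-month contralateral list had 20 H3K27me3 peaks there, at 10 of the 38. H3K9ac with 3-month plasma had 25 peaks in the span, at 20 of the 38, and the other 5 H3K9ac lists had 0. A group of 17 lay next to it at 181166485 to 181332352, with median folds of 2.98 and 4.93, H3K27me3 in 13-month contralateral tissue at 15 and H3K9ac with 3-month plasma at 9. Including those, 4 groups with 73 plasma-shared regions lay within the 1.57 Mb from 180492082 to 182062567, a stretch picked out after its values were seen. Their own spans were 98.6, 434, 166 and 120 kb, and no plasma-shared region lay between 181332352 and 181943020. None of the 4 spans held an H3K27me3 peak of untreated 21-month ipsilateral or of 13-month ipsilateral tissue. Untreated 21-month contralateral tissue had 4, 20, 4 and 3 H3K27me3 peaks in them.

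The group with the second most members lay on another chromosome and had peaks of the same lists. At chromosome 13, 33475778 to 33762879, 19 plasma-shared regions spanned 287 kb, with median folds of 2.59 with 3-month and 5.41 with 22-month plasma. H3K27me3 of 13-month contralateral tissue marked 14 of the 19, H3K9ac with 3-month plasma 7, and any H3K4me3 list 8. The untreated 21-month ipsilateral and the 13-month ipsilateral H3K27me3 lists again had 0 peaks in the span. The untreated 21-month contralateral H3K27me3 list had 10, at 3 of the 19 regions.

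Other groups had H3K4me3 at most of their regions. At chromosome 7, 2100600 to 2202293, 11 of 12 plasma-shared regions had an H3K4me3 peak and 8 an H3K9ac peak with 3-month plasma. At chromosome 1, 195805316 to 195855964, both counts were 9 of 11. H3K27me3 of 13-month ipsilateral tissue, absent from the spans above, marked 5 and 4 regions of these groups. At chromosome 6, 140083651 to 140280531, 8 of 12 had H3K4me3 and none had H3K9ac. These groups were named after their values were seen.

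The local background, over which the fold is taken, was higher in many of the groups. It was computed from the authors' pileup and fold and set relative to the lowest background the peak caller allows over the genome. With 3-month plasma its median was 1.16 times that value for regions alone and 2.90 times for those in groups of 5 or more, and with 22-month plasma 1.00 and 1.57 times. In groups of 5 or more it passed 2 times at 64.8% of regions with 3-month and 44.9% with 22-month plasma. The group at chromosome 6 above had medians of 1.00 in both lists. In the groups of 38, 17 and 19 named above the background had medians of 5.95, 5.22 and 4.64 times with 3-month plasma. With 22-month plasma they were 2.90, 3.03 and 2.02 times, so the lower 3-month folds there stood over the higher background. Over all plasma-shared regions it passed 2 times in 345 (25.4%) with 3-month and 246 (18.1%) with 22-month plasma, and reached 29.9 and 38.6 times. Regions with both plasma peaks and an untreated peak passed 2 times in 50.5% and 55.2%. The part of this background in the results on the groups was not tested.

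The strongest plasma-shared regions all lay in such groups. Ranked by the lower of both plasma folds, the first was chromosome 1, 195841903 to 195842512, 610 bp long, with folds of 12.5 with 3-month and 12.4 with 22-month plasma. It had H3K4me3 peaks in all 4 lists, with folds of 3.32 and 4.39 in 21-month ipsilateral and contralateral tissue and 3.48 and 3.93 at 13 months, and an H3K9ac peak with 3-month plasma of fold 4.74. H3K27me3 was also present in both 13-month lists, with folds of 2.78 ipsilateral and 4.43 contralateral, and not in 21-month contralateral tissue. Its neighbour at 195843393 to 195844347 had folds of 8.56 and 12.4 and H3K4me3 in all 4 lists. The next untreated 21-month ipsilateral peaks lay 1924 and 3414 bp away.

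The second strongest region, chromosome 1, 55689405 to 55690512, had folds of 10.05 and 11.85. The third, chromosome 17, 89438548 to 89440561, had 9.66 and 14.4, and it was the only one of the leading 10 with a peak in all 3 of the other H3K27me3 lists. The fourth, chromosome 20, 40854468 to 40854803, had 9.17 and 15.3, and its H3K4me3 fold was 10.9 in 13-month ipsilateral tissue, against 2.98 to 4.83 in the other H3K4me3 lists. The other leading regions were chromosome 1, 55682796 to 55683936 (7.88 and 9.94), chromosome 1, 39260431 to 39260974 (7.28 and 10.5), chromosome 1, 195805316 to 195806255 (7.22 and 9.43), chromosome 7, 2139323 to 2141427 (7.52 and 6.78) and chromosome 1, 39271449 to 39272318 (6.77 and 17.8). Each of the 10 had H3K4me3 in 3 or 4 lists. In 9 of the 10 the 3-month plasma H3K9ac list had a peak, and in none did the 22-month list. At the 10th, the neighbour of the first, the only H3K9ac peak was in untreated 21-month contralateral tissue, with a fold of 2.98.

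The longest plasma-shared regions were chromosome 1, 39285726 to 39289648 (3923 bp), chromosome 7, 2174827 to 2178120 (3294 bp) and chromosome 1, 173326586 to 173329474 (2889 bp). Their folds were 6.45 and 4.43, 9.56 and 2.66, and 4.68 and 5.84 with 3-month and 22-month plasma. The longest pair lay in groups of 11 and 12 and had H3K4me3 in all 4 lists and H3K9ac with 3-month plasma. The third had H3K4me3 at 13 months alone, with folds of 3.19 ipsilateral and 3.11 contralateral, and no H3K9ac in any list.

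The other H3K27me3 lists were not used in the choice and show whether the plasma-shared regions are marked elsewhere. A peak was present in untreated 21-month contralateral tissue at 240 of 1359 regions (17.7%, interval 15.7 to 19.8), in 13-month ipsilateral tissue at 383 (28.2%, 25.9 to 30.6) and in 13-month contralateral tissue at 311 (22.9%, 20.7 to 25.2). Over all 335546 joined regions the same lists marked 58.0%, 21.6% and 10.2%. Most joined regions have an untreated 21-month ipsilateral peak, which the plasma-shared regions lack by choice, and the 21-month lists of both sides share a processing folder. The regions with both plasma peaks and an untreated peak were marked in 87.6%, 88.2% and 68.8%, and those of 1 plasma list alone in 14.5%, 11.2% and 2.58%. The plasma-shared regions thus lay well below the regions with an untreated peak in all 3 lists. They lay above the 1-plasma regions in both 13-month lists. In 21-month contralateral tissue their 17.66% was close to the 17.71% of regions of 3-month plasma alone and above the 12.9% of 22-month plasma alone. In that list, at 700 bp or more, 18.5% of plasma-shared and 23.9% of 1-plasma regions were marked.

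The first places in that order depended on the lengths of the lists. When each list was cut to its 51805 peaks of highest fold, both 13-month lists changed places and 21-month contralateral tissue kept the lowest share. The shares were then 1.99% in 21-month contralateral, 12.9% in 13-month ipsilateral and 22.9% in 13-month contralateral tissue. The median fold of the H3K27me3 peaks at plasma-shared regions was 2.72, 2.86 and 3.36 in the same order of lists. None of the 3 lists marked 658 plasma-shared regions (48.4%, 45.8 to 51.1), against 36.0% of all joined regions. A single list marked 496 (36.5%), a pair of lists 177 (13.0%) and all 3 lists 28 (2.06%), against 44.1%, 13.9% and 5.98% of all joined regions.

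**Figure D3:**
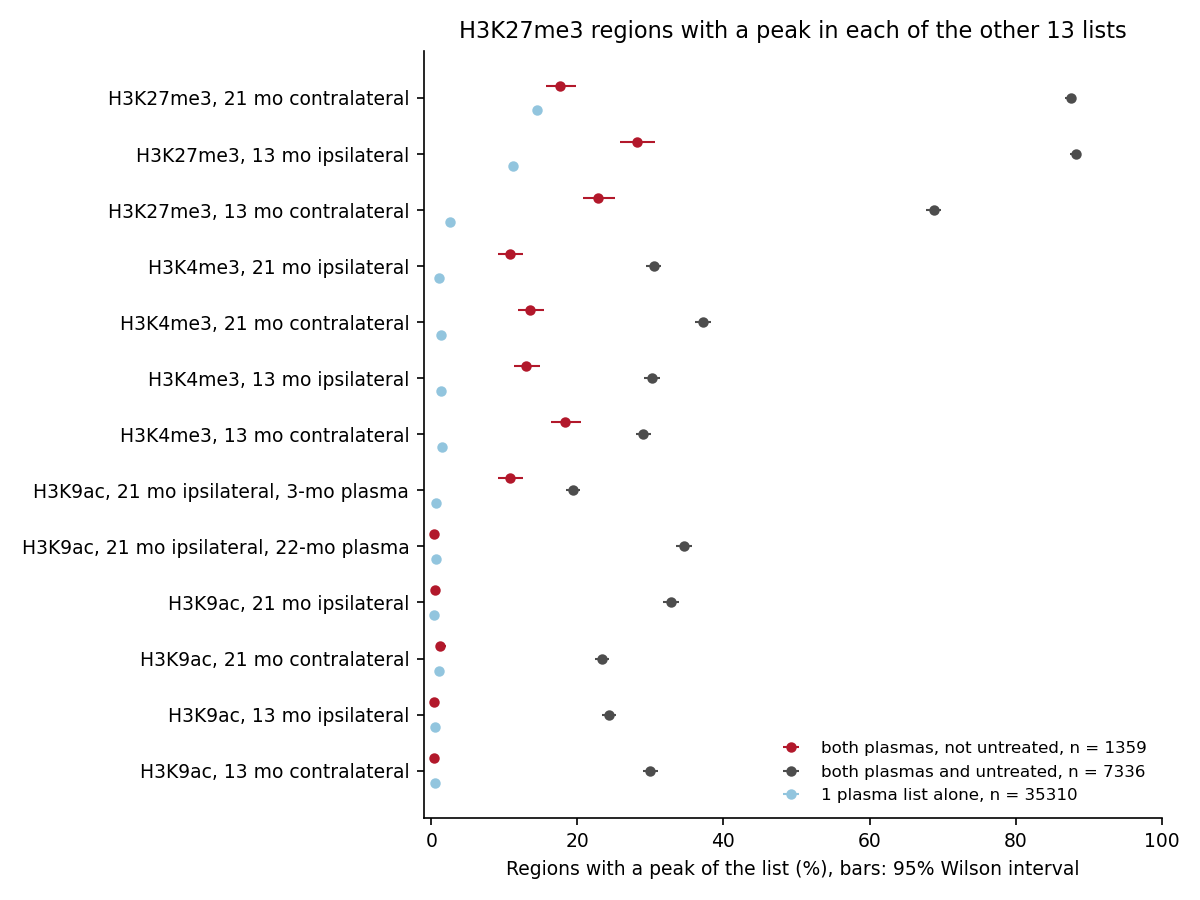
Share of regions with a peak in each of the 13 lists that did not choose them (%, horizontal; bars are 95% Wilson intervals), for plasma-shared regions (red), regions with both plasma peaks and an untreated peak (grey) and regions of 1 plasma list alone (blue). The red points lie between the other sets for H3K27me3, H3K4me3 and H3K9ac with 3-month plasma. For H3K9ac with 22-month plasma the red (0.368%) and blue points (0.646%) both lie near 0. The sets differ in length.

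The gap to the regions with an untreated peak was also present within length classes, and it was smaller for the 13-month contralateral list. Among regions of at least 400 and under 700 bp the 13-month ipsilateral list marked 26.8% of 649 plasma-shared regions, 63.8% of 1051 with an untreated peak as well and 18.9% of 4229 of 1 plasma list alone. The 13-month contralateral list marked 21.1%, 28.2% and 4.49% of the same sets. From 700 bp up, the 13-month contralateral list marked 42.8% of 271 plasma-shared regions, against 76.6% of 6145 with an untreated peak as well. That class has no upper limit, and its longest regions had 3923 bp and 35311 bp, so lengths there were not alike.

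The strongest regions without H3K27me3 in any of those 3 lists were of differing kinds. Chromosome 1, 39260431 and 39271449, given above, and chromosome 7, 2170631 to 2171854 (folds of 6.56 and 11.4), lay 13702, 24720 and 32751 bp from the next untreated 21-month ipsilateral peak and had H3K4me3 in 3 or 4 lists. Chromosome 14, 15422783 to 15423443 (7.17 and 6.29), and chromosome 17, 11801065 to 11801346 (6.94 and 6.24), had no H3K4me3 in any list. All 5 had an H3K9ac peak with 3-month plasma, of fold 2.94 to 8.45, and none in another H3K9ac list. They were not typical in this, since of all 658 regions without other H3K27me3, 24 had H3K9ac with 3-month plasma and 628 had no H3K9ac in any list.

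H3K4me3, the promoter mark, was present at a minority of the plasma-shared regions and at a larger share of them than of all joined regions. A peak was found at 146 (10.7%, 9.21 to 12.5) in 21-month ipsilateral tissue, 184 (13.5%, 11.8 to 15.5) in 21-month contralateral, 176 (13.0%, 11.3 to 14.8) in 13-month ipsilateral and 249 (18.3%, 16.4 to 20.5) in 13-month contralateral tissue. Over all joined regions these shares were 2.92%, 3.79%, 3.00% and 2.84%. Regions with both plasma peaks and an untreated peak had 30.4%, 37.2%, 30.2% and 29.0%, and those of 1 plasma list alone 1.03% to 1.42%. At least 1 of the 4 lists marked 379 plasma-shared regions (27.9%, 25.6 to 30.3), against 5.02% of all joined regions. All 4 lists marked 55 (4.05%), against 2.11% of all joined regions and 26.0% of those with both plasma peaks and an untreated peak.

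These H3K4me3 peaks were weak. Their median fold at plasma-shared regions was 2.59 to 2.93 over the 4 lists, against 4.56 to 7.53 at regions with both plasma peaks and an untreated peak. With only H3K4me3 peaks of fold 4 or more, the share of plasma-shared regions with H3K4me3 was 6.03%. Of the 379, 272 had no H3K9ac in any of the 6 lists. They were 20.01% of the plasma-shared regions, against 1.77% of all joined regions, 6.99% of those with an untreated peak as well and 2.91% of those of 1 plasma list alone. Among regions with H3K4me3, those without H3K9ac were 5940 of 16836 over all joined regions and 513 of 2931 with an untreated peak as well. With 1 plasma list alone they were 1028 of 1229, so the lack of H3K9ac was not particular to plasma-shared regions. Among regions of at least 400 and under 700 bp, H3K4me3 of any list marked 22.8% of plasma-shared regions. It marked 12.7% of those with an untreated peak as well and 5.79% of those of 1 plasma list alone. Under 400 bp the first sets had 19.4% and 15.0%, with overlapping intervals, and from 700 bp up 53.9% and 45.2%. Within each length class their order was thus the reverse of that over all lengths, and these sets differ in length. Single lists did not all follow. From 700 bp up, only the 13-month contralateral list had the higher share in plasma-shared regions (39.9%, against 33.5%).

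H3K9ac was nearly absent from the plasma-shared regions, apart from the list with 3-month plasma. That list had a peak at 146 of them (10.7%, 9.21 to 12.5), against 2.12% of all joined regions, 19.4% of those with both plasma peaks and an untreated peak, and 0.705% of those of 1 plasma list alone. Within both length classes from 400 bp up the plasma-shared regions had the higher share, although the class from 700 bp up has no upper limit. From 400 bp to under 700 bp the list marked 8.17% of plasma-shared regions and 2.95% of those with an untreated peak as well, and from 700 bp up 27.3% and 22.5%. Under 400 bp the counts were 19 of 439 and 7 of 140. The list with 22-month plasma, although longer (123863 peaks, against 50651 with 3-month plasma), had a peak at 5 (0.368%, 0.157 to 0.858). Its share was 6.51% of all joined regions, 34.6% of those with an untreated peak as well and 0.646% of those of 1 plasma list alone. Untreated 21-month tissue had H3K9ac at 7 plasma-shared regions ipsilaterally and 17 contralaterally, and 13-month tissue at 5 and 5. Over all joined regions the untreated shares were 5.42%, 3.64%, 3.26% and 4.68%. At least 1 untreated H3K9ac list marked 21 plasma-shared regions (1.55%), against 7.96% of all joined regions and 36.8% of those with an untreated H3K27me3 peak as well. The share was 1.40% in regions of 1 plasma list alone, so the low shares with 22-month plasma and untreated were not particular to plasma-shared regions.

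At 139 of the 146, the 3-month plasma list was the only H3K9ac list with a peak. These 139 were 10.2% of all plasma-shared regions, against 0.189% (634) of all joined regions. A single plasma-shared region had H3K9ac with both plasmas, against 1.80% of all joined regions. With both plasmas and not in untreated 21-month ipsilateral tissue it was 0 of 1359, which allows a share of up to 0.221%, taken as 3 counts, and the 95% Wilson limit is 0.282%. The share over all joined regions was 0.0978%, below both limits. Both H3K9ac plasma lists lie in the same processing folder. The folds of the H3K9ac peaks at the 146 regions had a median of 3.34 and reached 8.50, and their median percentile within the H3K9ac list was 47.5.

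The 146 regions with H3K9ac differed in their other features from the 1213 without. An H3K4me3 peak in any list was present in 69.9% of the 146 and 22.8% of the 1213, and a 13-month contralateral H3K27me3 peak in 67.8% and 17.5%. In groups of 5 or more lay 69.2% and 16.5%, and on chromosome 1 49.3% and 19.95%. Their median length was 732 bp, against 465 bp. The median H3K27me3 fold was 3.29 with and 3.60 without H3K9ac for 3-month plasma, and 6.00 and 3.82 for 22-month plasma. The local background of the 3-month H3K27me3 list had a median of 4.84 times the genome's at the 146 and 1.16 times at the others. Among the 966 plasma-shared regions with a background of at most 2 times in both plasma lists, 2.17% had H3K9ac with 3-month plasma.

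How densely the regions lay went together with these marks. From regions alone, through pairs and groups of 3 or 4, to groups of 5 or more, H3K9ac with 3-month plasma was present in 2.20%, 6.40%, 15.0% and 33.6%. H3K4me3 in any list was present in 13.3%, 28.5%, 41.6% and 59.8%, and H3K27me3 in 13-month contralateral tissue in 8.80%, 21.5%, 30.1% and 57.1%. The other H3K27me3 lists did not follow. In the same order 13-month ipsilateral tissue had 28.2%, 33.7%, 31.9% and 23.6%, and 21-month contralateral tissue 19.4%, 15.1%, 15.0% and 15.6%. The 13-month contralateral list kept 0.303 times the tags of the untreated 21-month ipsilateral list, with 52% duplicate tags. For 13-month ipsilateral and 21-month contralateral tissue these were 0.608 and 0.621 times, with 23% and 19%. The 3-month and 22-month plasma H3K27me3 lists had 38% and 46% duplicate tags. The part of depth and duplicates in this contrast was not tested. The share with an untreated 21-month ipsilateral peak within 5 kb was 77.7%, 73.8%, 69.9% and 40.5%. Median length was 444, 497, 497 and 607 bp in the same order, and its part in these trends was not tested. In groups of 5 or more, 172 regions had 13-month contralateral H3K27me3 and 101 had H3K9ac with 3-month plasma. The group of 38 on chromosome 1 held 36 and 20 of these.

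**Figure D4:**
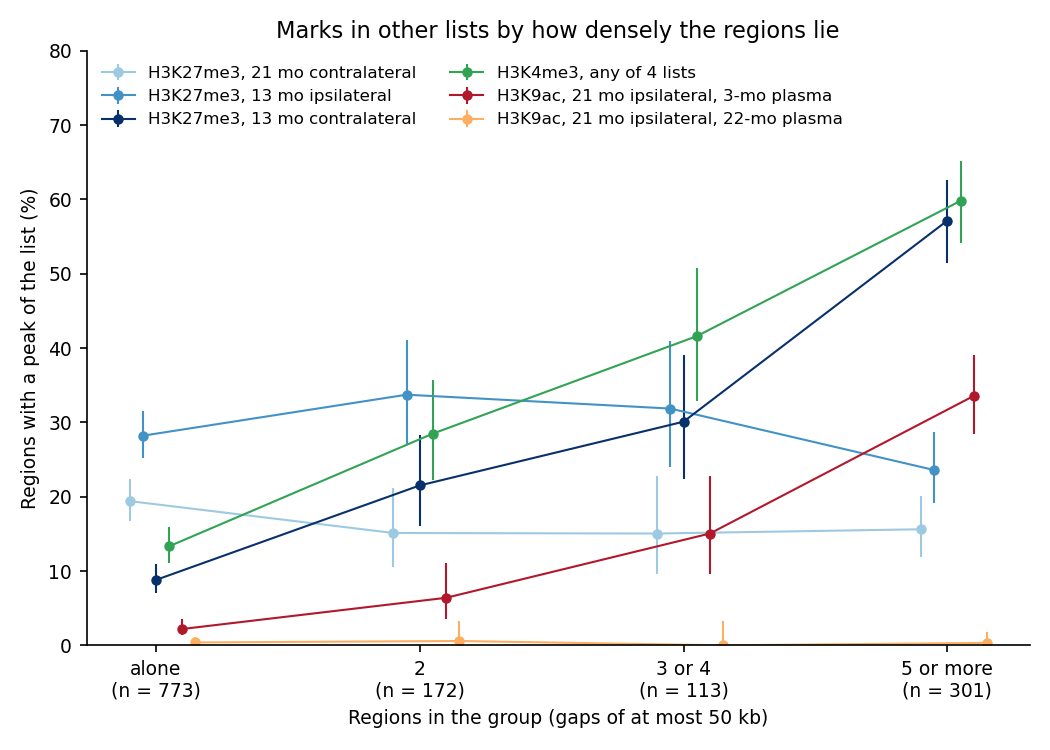
Share of plasma-shared regions with a peak of each list (%, vertical; bars are 95% Wilson intervals) by the number of regions in their group (horizontal). H3K4me3, H3K9ac with 3-month plasma and 13-month contralateral H3K27me3 increase with group size, to 59.8%, 33.6% and 57.1%, while the other lists do not.

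Without the 301 regions in groups of 5 or more, the shares over the remaining 1058 were 4.25% for H3K9ac with 3-month plasma, 18.8% for H3K4me3 and 13.1% for 13-month contralateral H3K27me3. For 13-month ipsilateral H3K27me3 the share was then 29.5%. Without chromosome 1 the share with H3K9ac was 7.08%.

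The 31 groups of 5 or more were also described over their whole spans, 3.00 Mb in all, by the peaks of all 16 lists per Mb. The plasma H3K27me3 lists that defined the groups were 11.2 and 12.6 times as dense there as over the assembled chromosomes. The untreated 21-month H3K27me3 lists were 0.601 times as dense ipsilaterally and 0.747 times contralaterally, while the 13-month lists were 2.11 and 7.62 times as dense. H3K4me3 was 4.43 and 5.61 times as dense at 21 months and 6.26 and 8.40 times at 13 months, in ipsilateral and contralateral tissue. H3K9ac with 3-month plasma had 136 peaks in the spans, in 24 of the 31 groups, and was 2.49 times as dense. H3K9ac with 22-month plasma had 5 peaks and was 0.0374 times as dense, and the untreated H3K9ac lists had 3 to 5 peaks each. The spans were chosen by the plasma H3K27me3 peaks and by the absence of untreated 21-month ipsilateral H3K27me3 peaks from the regions. The low density of that untreated list is thus partly set by the choice. No test was made of these densities.

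**Figure D5:**
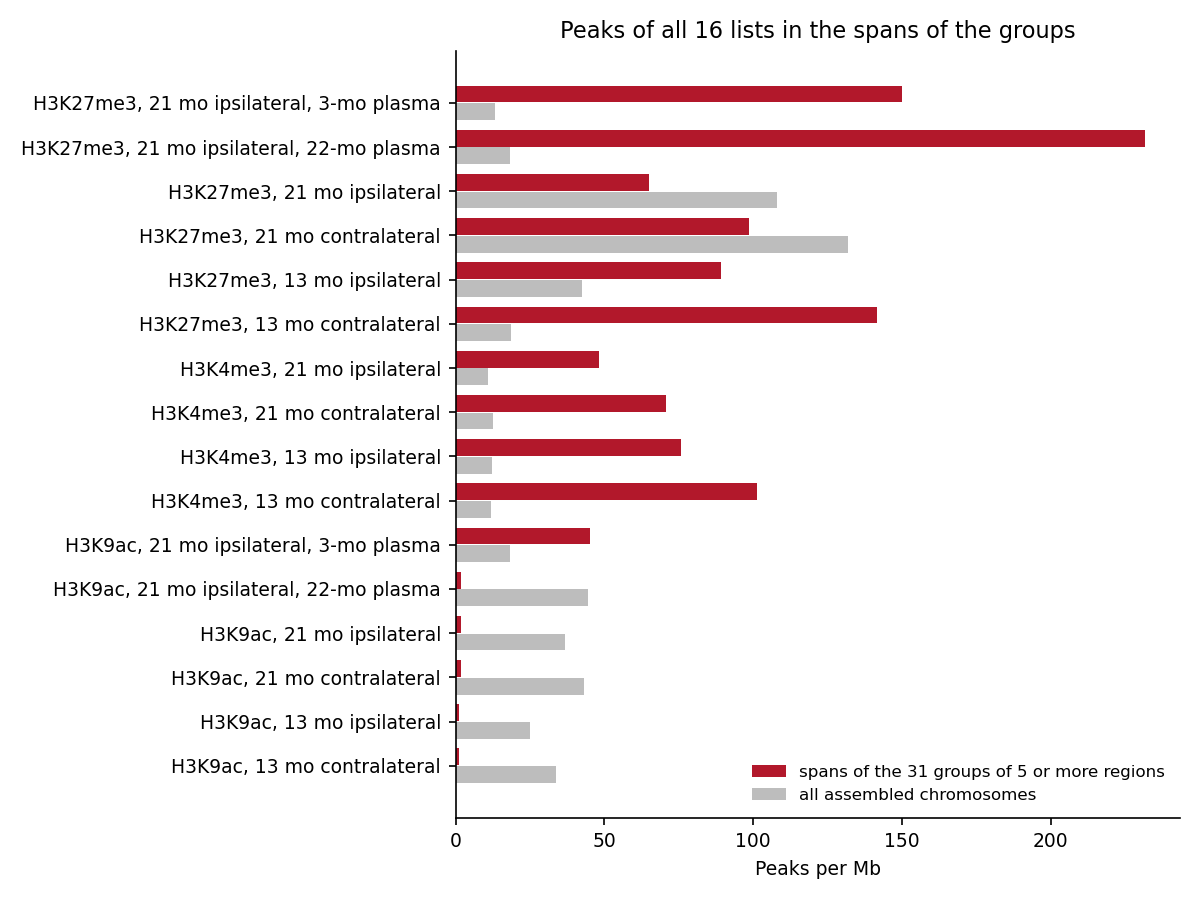
Peaks per Mb of all 16 lists in the spans of the 31 groups of 5 or more plasma-shared regions (red) and over all assembled chromosomes (grey). H3K9ac stands at 45.3 per Mb in the spans with 3-month plasma and at 1.66 with 22-month plasma, against 18.2 and 44.5 per Mb over the chromosomes.

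Some plasma-shared regions had no called peak in any other list, at a share slightly above that of all joined regions. No peak of any of the 13 lists outside the choice overlapped 521 of them (38.3%, 35.8 to 41.0), against 33.6% of all joined regions, 3.53% of the regions with both plasma peaks and an untreated peak and 72.2% of those of 1 plasma list alone. Regions that lay alone had none of the other 3 H3K27me3 lists in 56.1% (434 of 773), against 31.6% (95 of 301) in groups of 5 or more.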

How the data were processed

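Per the labels' protocols, ThruPLEX libraries were run on a NextSeq instrument as paired reads, while paired-end mode was off in the peak calling, per the file headers, so tags and duplicates there are single reads. Tools listed in the submitters' processing notes are Bowtie2, HOMER and cutadapt, with no version. The peak caller was MACS 2.1.1.20160309, run for narrow peaks, with q-values up to 0.05 kept, 2.70 Gb taken as the effective genome and 1 tag allowed per position, per the file headers. Narrow calling can break broad H3K27me3 domains into short peaks. Duplicates made up 13% to 82% of ChIP tags. The labels do not say whether libraries came from separate animals.

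For each peak the authors deposited a pileup, which is a coverage signal scaled within its list, a −log10 q-value, and a fold, the ratio of peak height to local background. Pileups and folds were not corrected for the depth of each list. The local background was computed as (pileup + 1) / fold − 1 and divided by its value for the whole genome. That value was computed from the header as the smaller of the ChIP and input tags kept, times the fragment length, over the effective genome size.

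Peaks were read with Python 3.11.15, numpy 2.4.6 and pandas 2.3.3, intervals were computed with scipy 1.17.1 and figures drawn with matplotlib 3.10.9. Overlap was at least 1 bp. Groups of regions are runs with gaps of at most 50 kb. Joining was tested on simulated lists with planted classes. The regions to describe, the lists and the rules were chosen with earlier results of these data known. The rule for named regions took the 10 with the highest lower-of-both plasma folds on assembled chromosomes, the 3 longest, the 3 groups with the most members, the 5 strongest with H3K4me3 in all 4 lists (the first 5 of the leading 10), the 5 strongest without other H3K27me3, and 3 on each side of the threshold, of which the third outside was chromosome 17, 89461280 to 89461711 (plasma folds of 1.49 and 1.55, untreated fold of 1.17).

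Which genome build was used is not given in the labels or headers, and positions are those of the lists, counted from 1. Chromosome 1 peaks reach position 282760941, beyond the last chromosome 1 gene of the GRCr8 annotation, which ends at 270492571. That annotation was therefore not used, no genes or sequences are given, and the gene families and tissue markers planned were not counted.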

Additional observations from a re-analysis of the deposited data

How the results depend on the processing

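The number of plasma-shared regions, 1359, depended on how the lists were thresholded. It was 350 with plasma peaks of a −log10 q-value of 5 or more, 230 with plasma folds of 4 or more, 427 with no untreated peak within 5 kb, and 2560 with the 37241 peaks of highest fold from each list, where fewer untreated peaks were left to exclude a region. It stayed within 1.5 times, at 1122, when regions were joined across gaps of up to 1 kb, at 1109 when the plasma peaks had to share at least 50% of the shorter, and at 1346 on assembled chromosomes. No paired analysis was possible because each group has 1 list, pooled from 2 ChIP libraries without plasma and made from 1 with plasma, and for the same reason no replicate could be left out.

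Shares in 21-month contralateral, 13-month ipsilateral and 13-month contralateral H3K27me3 were 9.12%, 16.3% and 14.3% when at least 50% of the region had to be covered. They were 15.7%, 15.5% and 43.1% for the 427 regions far from untreated peaks. With equal numbers of peaks the first 2 lists gave 1.99% and 12.9%. For the 346 regions with a −log10 q-value of 5 or more in both plasma lists, the shares were 14.2% in 21-month and 49.7% in 13-month contralateral tissue. In these 346 H3K4me3 of any list was at 53.5%, H3K9ac with 3-month plasma at 33.2% and with 22-month plasma at 0%. Another plasma-shared region of the 346 lay within 10 kb in 43.9%, and an untreated peak within 5 kb in 43.1%. Their median length was 556 bp and the median lower fold 4.09, against 3.30 for all.

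H3K4me3 of any list was at 12.1% with at least 50% of the region covered, 35.8% with a peak within 1 kb and 6.03% with peaks of fold 4 or more. In the same order H3K9ac with 3-month plasma was at 6.40%, 14.3% and 3.75%, and any untreated H3K9ac list at 0.662%, 3.38% and 0.515%. H3K9ac with 22-month plasma was at 1.55% within 1 kb and 0.0736% with fold 4 or more. Another plasma-shared region lay within 5 kb of 22.9%, and an untreated peak within 1 kb of 40.8%. Joined across 1 kb, the regions had a median length of 818.5 bp.

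Alternatives chosen after seeing the data left out some regions. Without groups of 5 or more, H3K27me3 in 13-month contralateral tissue, H3K4me3 and H3K9ac with 3-month plasma were at 13.1%, 18.8% and 4.25%. Without chromosome 1 they were at 18.9%, 24.5% and 7.08%. With a local background of at most 2 times the genome's they were at 11.2%, 18.6% and 2.17%, and H3K27me3 in 21-month contralateral tissue at 14.2%. On assembled chromosomes alone, the shares and medians that were recomputed stayed within the 95% counting interval of their values over all 1359. The shares by group size, by length and by number of lists were not recomputed. The cause of these changes was not tested.

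With 1 list per group, no difference between plasma and untreated tissue was set against a spread between animals. The plasma lists rest on fewer tags than the untreated list, and a missing peak in any list was only not detected at that list's depth.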
